A study of Mus musculus with 12 samples.

Results

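The 10 genes described here mark the osteoclast, the multinucleated cell that dissolves bone: Acp5, Ctsk, Mmp9, Atp6v0d2, Slc9b2, Dcstamp, Ocstamp, Nfatc1, Calcr and Oscar. They were taken by symbol from the 19938 genes that the array table names, and each of the 10 had 1 row in it. RNA of whole bone marrow flush from B6 mice was measured on 12 arrays, 3 in each of 4 groups. In the irradiated PTH group, mice were sub-lethally irradiated at 10 days of age with 2 fractions of 310 cGy and received parathyroid hormone (PTH) from day 11 to day 15. The irradiated vehicle group had the same irradiation and received vehicle on those days. The nonirradiated PTH group and the nonirradiated vehicle group received PTH or vehicle on the same days without irradiation. All mice were 16 days old in the sample descriptions, and the sources used here do not state the dose of PTH. The design asks how PTH acts on marrow with and without prior irradiation. Nothing in the labels ties each array to a mouse of its own, so p-values measure the spread between these samples, which may be technical.

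Osteoclasts form when monocyte-lineage precursors receive M-CSF and RANKL. Osteoblast-lineage cells and osteocytes display RANKL, which acts through the receptor RANK, and signals from immunoreceptors such as Oscar raise calcium inside the cell, which activates the transcription factor Nfatc1. The precursors then fuse, seal off a patch of bone, acidify it and secrete proteases. PTH acts on osteoblast-lineage cells, which carry its receptor, and reaches osteoclasts mainly through the RANKL those cells display. Several of the genes are not limited to osteoclasts: Mmp9 is also stored in neutrophil granules, and Nfatc1 and Acp5 are also used by other haematopoietic cells.

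Values are log2 expression, on which a difference of 1 is a doubling, and they are not comparable between genes because each gene has its own probes. A gene was called at an adjusted p under 0.05 from limma, a linear model fitted over all 19938 genes and adjusted by the Benjamini-Hochberg method. None of the 10 genes was called in any of the 7 comparisons. Because the samples are bulk RNA, fewer osteoclasts and less RNA per osteoclast cannot be told apart. On 2 arrays, irradiated PTH replicate 3 and nonirradiated vehicle replicate 3, the values were compressed, with an interquartile range of 2.86 to 2.88 against 3.13 to 3.25 on the other arrays. The sex-linked genes gave a female pattern on 1 of 3 irradiated PTH arrays, 1 of 3 irradiated vehicle arrays, 3 of 3 nonirradiated PTH arrays and 0 of 3 nonirradiated vehicle arrays. PTH and sex therefore cannot be told apart between the nonirradiated groups. As a check of the labelled tissue, the neutrophil gene list averaged between 10.54 and 11.53 on every array, and the B lineage list between 7.02 and 9.79; the arrays give no call of absence.

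Of the 10 genes, the 2 that move protons, Slc9b2 and Atp6v0d2, had their highest group mean in irradiated PTH marrow. Ocstamp, Dcstamp, Calcr and Oscar shared that trait. Slc9b2, a sodium-proton exchanger of osteoclasts, read 8.27, 8.40 and 7.66 in irradiated PTH marrow, against 7.12, 7.19 and 7.41 in irradiated vehicle marrow. It read 8.67, 7.51 and 7.76 in nonirradiated PTH marrow, against 7.49, 7.39 and 7.57 in nonirradiated vehicle marrow. Every irradiated PTH array was above every irradiated vehicle array, while 1 nonirradiated PTH array stood far above the other 2, which lay close to the vehicle values. The irradiated difference was 0.87 (SE 0.267, 95% interval 0.28 to 1.45), a 1.82-fold higher level with an unadjusted p of 0.00707 and an adjusted p of 0.844 by limma. The nonirradiated difference was 0.50 (adjusted p = 1 by limma), and the interaction of PTH and irradiation was 0.37 (adjusted p = 0.772 by limma).

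Atp6v0d2, a subunit of the proton pump that also takes part in fusion of osteoclast precursors in mice, read 10.41, 10.64 and 10.01 in irradiated PTH marrow, against 9.51, 9.60 and 9.85 in irradiated vehicle marrow. In nonirradiated PTH marrow it read 10.52, 9.41 and 9.80, against 9.52, 9.15 and 9.41 in nonirradiated vehicle marrow. Again the irradiated groups did not overlap and the nonirradiated groups did, with nonirradiated PTH replicate 1 far above its group. The irradiated difference was 0.70 (SE 0.250, 95% interval 0.15 to 1.24), a 1.62-fold higher level with an adjusted p of 0.844 by limma. The nonirradiated difference was 0.55 (SE 0.250, 95% interval 0.0054 to 1.10, unadjusted p = 0.0481 by limma) and was not called. The interaction of PTH and irradiation was 0.15 (adjusted p = 0.905 by limma). An average over irradiation takes in the nonirradiated groups, where PTH and sex cannot be told apart. Averaged over irradiation, the PTH difference was 0.62 for Atp6v0d2 (unadjusted p = 0.00422) and 0.68 for Slc9b2 (unadjusted p = 0.0036), both with an adjusted p of 1 by limma.

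Fusion of precursors needs the membrane proteins Dcstamp and Ocstamp. Dcstamp read 6.40, 6.54 and 6.08 in irradiated PTH marrow, against 5.75, 5.94 and 6.33 in irradiated vehicle marrow. Nonirradiated PTH marrow gave 6.72, 5.95 and 5.62, against 5.87, 5.61 and 5.81 in nonirradiated vehicle marrow. Both pairs of groups overlapped, and the differences were 0.33 (SE 0.249) after irradiation and 0.34 without it. Ocstamp read 7.20, 7.16 and 6.57 in irradiated PTH marrow, against 6.67, 6.71 and 6.65 in irradiated vehicle marrow. Its nonirradiated values were 6.88, 6.83 and 6.60 with PTH, against 6.25, 6.75 and 6.54 with vehicle. For Ocstamp the first 2 irradiated PTH arrays were the highest of all 12 and the third lay below its vehicle group, so that the groups overlapped (difference 0.31, SE 0.180, adjusted p = 0.844 by limma).

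The enzymes secreted onto bone gave no such separation. Acp5, the tartrate-resistant acid phosphatase used to stain osteoclasts, read 11.16, 11.10 and 10.23 in irradiated PTH marrow, against 10.90, 10.58 and 10.26 in irradiated vehicle marrow. It read 11.37, 11.47 and 10.88 in nonirradiated PTH marrow, against 10.09, 11.25 and 11.04 in nonirradiated vehicle marrow. The low arrays were irradiated PTH replicate 3, irradiated vehicle replicate 3 and nonirradiated vehicle replicate 1, and the PTH differences were 0.25 (SE 0.321) after irradiation and 0.45 without it. Ctsk, cathepsin K, the protease that cuts bone collagen, read 12.00, 12.07 and 10.59 in irradiated PTH marrow, against 11.45, 11.36 and 10.96 in irradiated vehicle marrow. In nonirradiated marrow it read 12.18, 12.01 and 11.66 with PTH, against 11.04, 11.76 and 12.06 with vehicle. Irradiated PTH replicate 3 was the lowest of all 12 arrays for Ctsk. After irradiation the PTH difference was 0.30 (SE 0.364), with SDs of 0.836 among the PTH arrays and 0.264 among the vehicle arrays. Without irradiation it was 0.33 (SE 0.364), with SDs of 0.262 among the PTH arrays and 0.523 among the vehicle arrays. Mmp9, a gelatinase, read 10.25, 10.49 and 8.31 in irradiated PTH marrow, against 10.27, 10.10 and 9.49 in irradiated vehicle marrow. It read 10.75, 10.72 and 10.15 in nonirradiated PTH marrow, against 9.63, 10.55 and 10.30 in nonirradiated vehicle marrow. The same compressed array set the irradiated PTH mean of Mmp9, whose PTH difference was -0.27 (SE 0.474) with that array and 0.42 without it.

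Nfatc1, the transcription factor that drives osteoclast differentiation, read 7.99, 8.22 and 6.82 in irradiated PTH marrow, against 8.78, 8.93 and 8.40 in nonirradiated PTH marrow. Irradiated vehicle marrow gave 8.31, 7.97 and 7.62, against 7.69, 8.70 and 8.15 in nonirradiated vehicle marrow. All 3 irradiated PTH arrays lay below all 3 nonirradiated PTH arrays, and the vehicle groups overlapped. The PTH groups also differ in sex, with the female pattern on 1 of 3 irradiated and 3 of 3 nonirradiated arrays. The difference between the PTH groups was -1.03 (SE 0.349, 95% interval -1.79 to -0.26, adjusted p = 0.193 by limma), and without irradiated PTH replicate 3 it was -0.60 (adjusted p = 0.512 by limma). Markers of other blood cells that can use Nfatc1 were compared between these PTH groups, where limma called 2.43% of all genes. The 9 measured B lineage genes averaged 7.02 to 7.51 in irradiated PTH marrow and 9.49 to 9.79 in nonirradiated PTH marrow, with 8 of the 9 called lower by limma, among them Cd79a (-2.73) and Cd79b (-2.59), chains of the B cell receptor. They also averaged 7.43 to 7.84 in irradiated vehicle marrow and 9.35 to 9.68 in nonirradiated vehicle marrow. The 12 neutrophil genes averaged 10.54 to 11.13 in irradiated PTH marrow and 11.10 to 11.53 in nonirradiated PTH marrow, so these ranges overlapped. Of the 12, 1 was called lower, Ly6g (-1.88, adjusted p = 0.0217 by limma), and 0 were called higher. The part of these cells in the Nfatc1 difference was not tested. Calcr, the calcitonin receptor, through which calcitonin halts resorption, read 5.75, 5.84 and 5.99 in irradiated PTH marrow, against 5.56, 5.48 and 5.46 in irradiated vehicle marrow. Its nonirradiated values were 5.58, 5.55 and 5.78 with PTH, against 5.24, 5.67 and 6.22 with vehicle. The irradiated groups of Calcr did not overlap (difference 0.36, SE 0.198, adjusted p = 0.844 by limma), but all 4 of its group means lay below 6.22, the median of all values in the table. Of the other genes, Dcstamp was also dim, with 3 of its 4 group means below that level and 6.34 in irradiated PTH marrow. Oscar, a collagen-binding immunoreceptor, read 7.20, 7.13 and 6.20 in irradiated PTH marrow, against 6.54, 6.56 and 6.57 in irradiated vehicle marrow. With PTH and no irradiation it read 7.17, 6.69 and 6.47, against 6.12, 6.37 and 6.64 in nonirradiated vehicle marrow. Oscar had 2 irradiated PTH arrays well above the tight vehicle group and 1 below it (difference 0.28, SE 0.255).

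**Figure D1:**
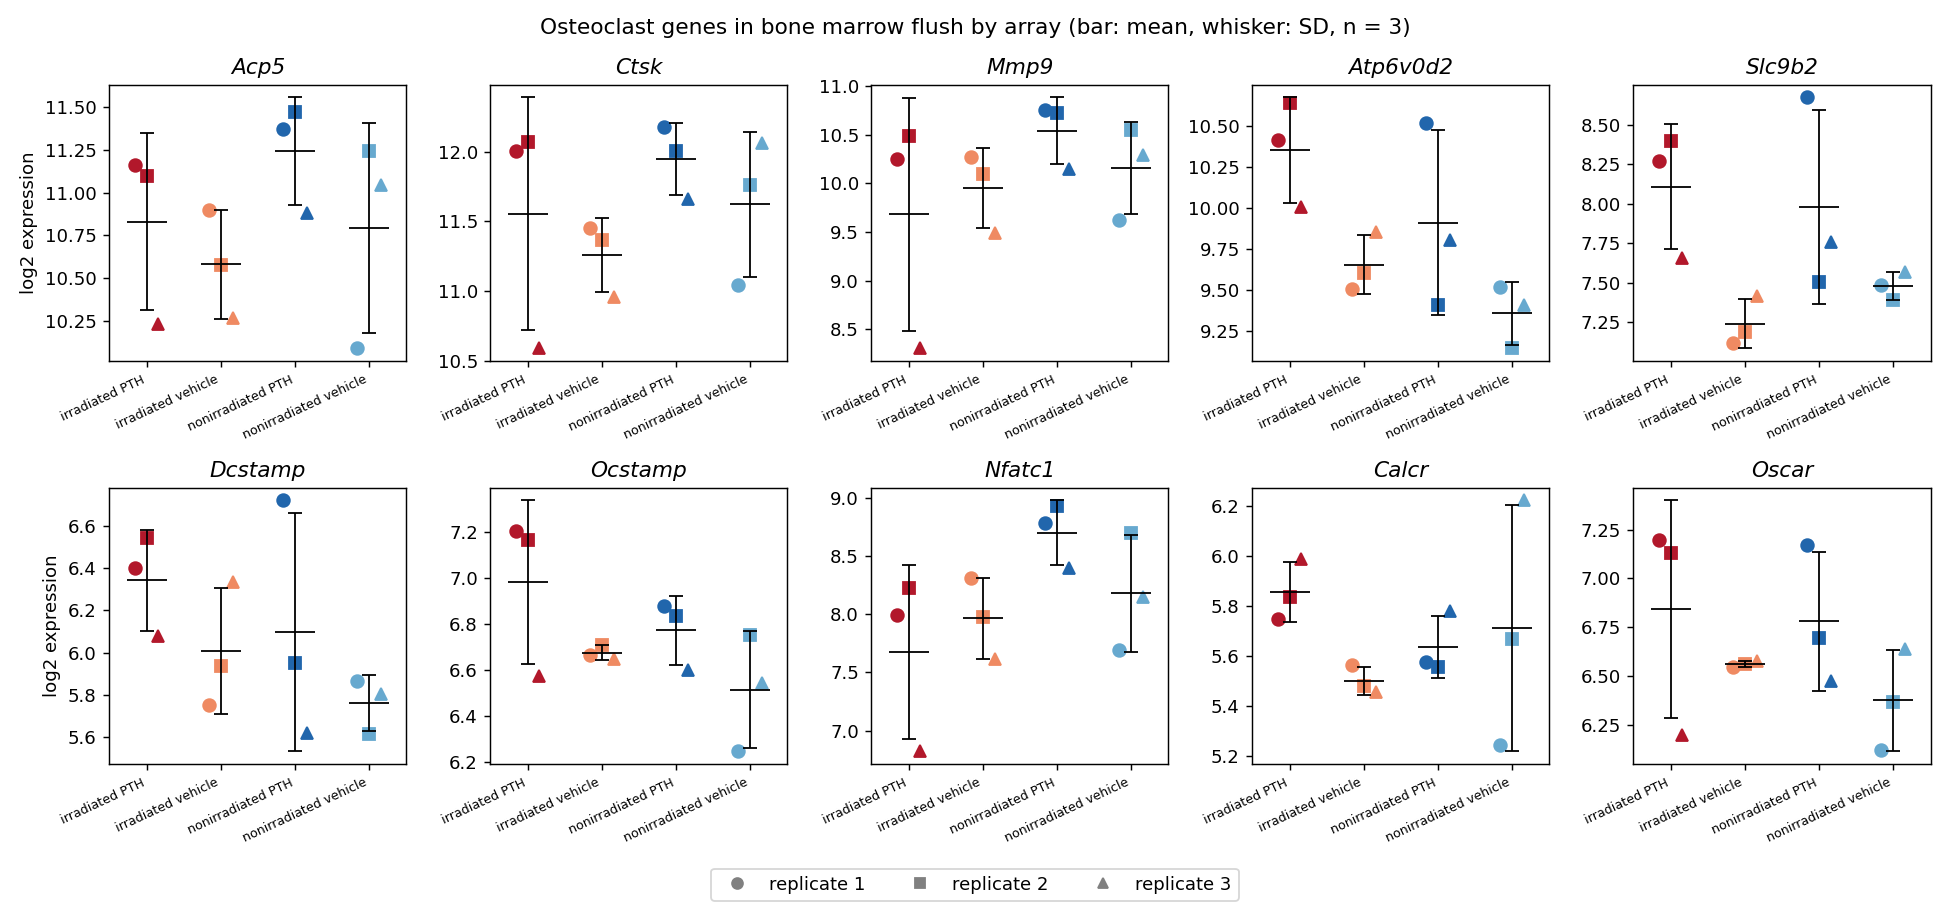
Log2 expression of the 10 genes (vertical axes, 1 panel per gene, own scale) in the 4 groups, with each array as a point shaped by its replicate number, the mean as a bar and the SD as whiskers (n = 3). Slc9b2, Atp6v0d2 and Calcr separate irradiated PTH from irradiated vehicle marrow, and Nfatc1 separates the PTH groups.

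Ranking the 4 group means put irradiated PTH first for Atp6v0d2, Slc9b2, Ocstamp, Dcstamp, Calcr and Oscar, and nonirradiated PTH first for Acp5, Ctsk, Mmp9 and Nfatc1. For all 10 genes, each pair of neighbouring groups in that order overlapped in range, so the full order is not resolved by 3 arrays a group.

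Between irradiated PTH and irradiated vehicle marrow, limma called 0 of the 10 genes, against 0% of all 19938 genes, and at an unadjusted p under 0.05 it had 2 of the 10 higher and 0 lower, against 1.7% and 2.11% of all genes. The groups did not overlap for 3 genes that were higher with PTH and for 0 that were lower, against 5.48% and 4.25% of all genes. In all, 8 of the 10 differences were above 0, against 52.2% of all genes, and their median was 0.30, against 0.01 over all genes. Without irradiated PTH replicate 3 all 10 differences were above 0, with a median of 0.53, and none was called. The median was 0.15 without irradiated PTH replicate 1 and 0.17 without replicate 2 of that group.

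Between nonirradiated PTH and nonirradiated vehicle marrow limma again called 0 of the 10, against 0% of all genes. At an unadjusted p under 0.05, 1 of the 10 (Atp6v0d2) was higher and 0 were lower, against 1.07% and 0.717% of all genes. In this comparison 9 of the 10 differences were above 0, against 52.7% of all genes, with a median of 0.39. None of the 10 separated these groups, against 3.21% of all genes higher and 3.62% lower without overlap. The median was 0.21 without nonirradiated PTH replicate 1 and 0.20 without nonirradiated vehicle replicate 1. With sex as a term the median was 0.06, while Slc9b2 and Atp6v0d2 had 0.47 and 0.62. That term could be estimated only within the irradiated groups, where 1 array each had the female pattern. Carried over to the nonirradiated groups, it does not tell PTH and sex apart there. Averaged over irradiation, all 10 PTH differences were above 0 against 52.2% of all genes, with a median of 0.32, or 0.19 without nonirradiated vehicle replicate 1. This average takes in the nonirradiated groups, in which PTH and sex cannot be told apart. Of the 10, 0 were called by limma, against 0% of all genes. Slc9b2, Atp6v0d2 and Ocstamp were higher at an unadjusted p under 0.05 and 0 of 10 were lower, against 0.702% and 0.562% of all genes.

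Irradiation moved many other genes but none of these 10 past the threshold. Between irradiated PTH and nonirradiated PTH marrow limma called 0 of 10, against 2.43% of all genes, and at an unadjusted p under 0.05 it had 1 of 10 lower and 0 higher, against 8.73% and 4.7%. Nfatc1 was the 1 gene lower without overlap and 0 were higher, against 10.9% and 8.93% of all genes, a share near that background. In this comparison 6 of 10 differences were above 0, against 51.3% of all genes. Between irradiated vehicle and nonirradiated vehicle marrow limma called 0 of 10, against 2.22% of all genes, with none of the 10 at an unadjusted p under 0.05 (7.43% of all genes were higher and 5.85% lower) and a smallest adjusted p of 0.681. None of the 10 separated the vehicle groups, against 8.95% of all genes higher and 9.83% lower, and 4 of 10 differences were above 0, against 45.4%. Averaged over treatment it called 0 of 10, against 6.1% of all genes, and at an unadjusted p under 0.05 it had 0 higher and 1 lower, against 8.03% and 9.23%. That gene was Nfatc1 (-0.62, adjusted p = 0.203 by limma), and 5 of 10 differences were above 0, against 47.8%. For the interaction of PTH and irradiation it called 0 of 10, against 0% of all genes, with none of the 10 at an unadjusted p under 0.05 (1.97% of all genes were higher and 3.52% lower) and 4 of 10 above 0, against 52%. These comparisons share groups, so their values are not independent of each other.

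**Figure D2:**
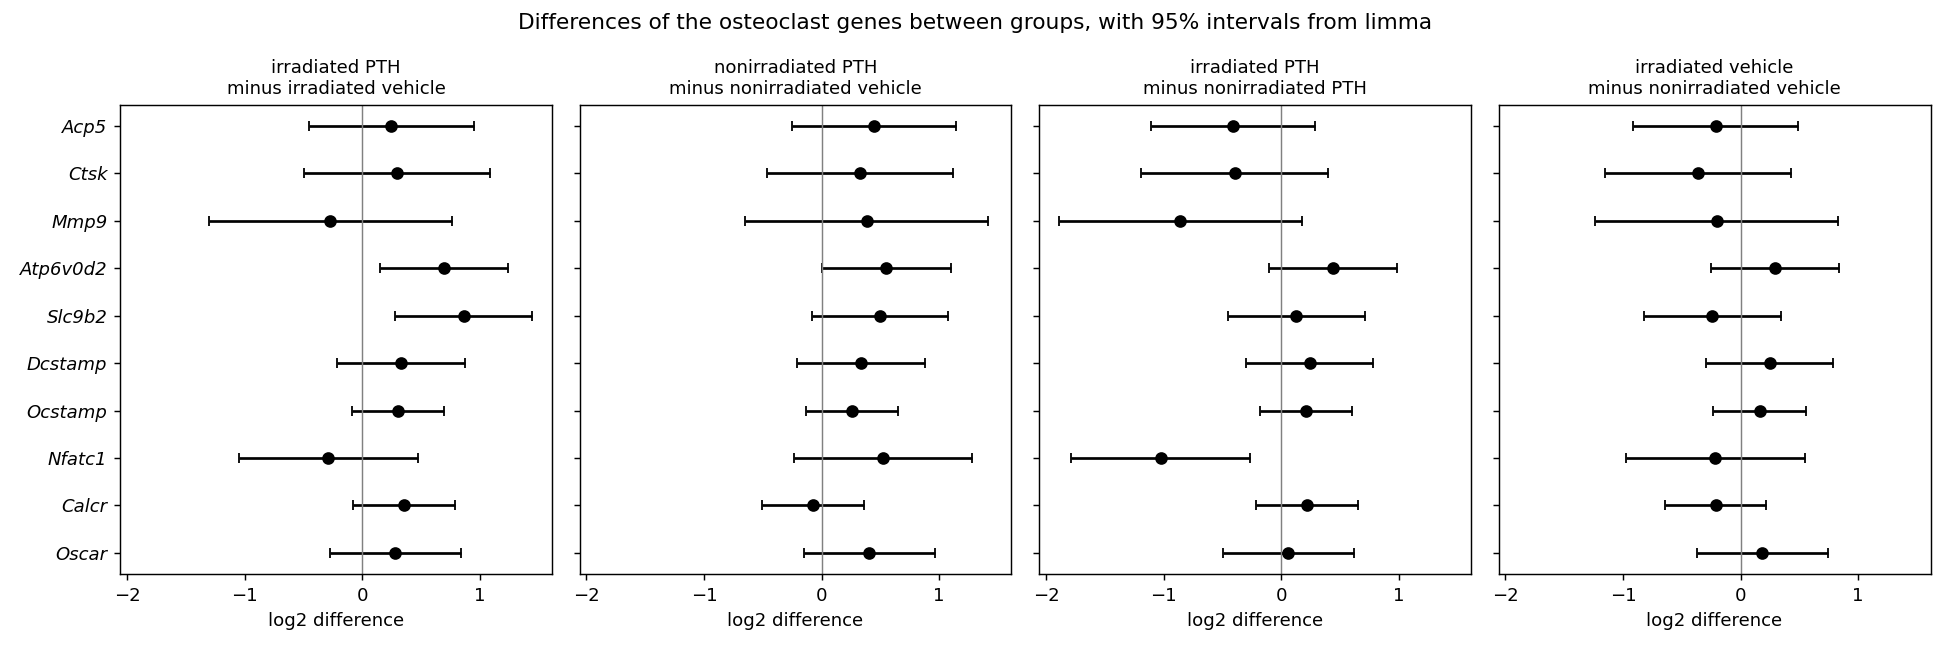
Log2 differences of the 10 genes in the comparisons of the 4 groups, each point a difference from limma and each line its 95% interval, with 0 meaning no difference. Slc9b2 and Atp6v0d2 have intervals above 0 for irradiated PTH against irradiated vehicle (0.28 to 1.45 and 0.15 to 1.24). Atp6v0d2 also has one above 0 for nonirradiated PTH against nonirradiated vehicle (0.0054 to 1.10). Nfatc1 has one below 0 for irradiated PTH against nonirradiated PTH.

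Over the 12 arrays the genes varied in 2 sets, which were picked out after their values were seen. Atp6v0d2, Slc9b2 and Dcstamp correlated with each other at r of 0.78 to 0.88, and Acp5, Ctsk, Mmp9 and Nfatc1 at 0.82 to 0.95. Between the sets r ran from -0.14 to 0.53. Without both compressed arrays, a setting chosen for these correlations after the data were seen, the ranges were 0.79 to 0.89, 0.75 to 0.96 and -0.10 to 0.71. Oscar lay closest to the mean of the other 9 genes (r = 0.898) and Calcr farthest from it (r = 0.123). Both ends of that order differed without both compressed arrays, where Ctsk came closest (0.929, with Oscar at 0.881) and Nfatc1 farthest (0.479, with Calcr at 0.669). These correlations are descriptions over 12 arrays that share groups, preparation and overall quality.

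Single arrays carried much of this variation. Nonirradiated PTH replicate 1 was among the highest 3 of 12 arrays for 9 of the 10 genes, and irradiated PTH replicate 2 for 7. At the other end, nonirradiated vehicle replicate 1 was among the lowest 3 for 7 genes and irradiated PTH replicate 3 for 6. The mean over the 10 genes was 8.66, 8.76 and 7.85 in irradiated PTH marrow, against 8.21, 8.15 and 8.06 in irradiated vehicle marrow. It was 8.86, 8.51 and 8.31 in nonirradiated PTH marrow, against 7.89, 8.32 and 8.37 in nonirradiated vehicle marrow. Irradiated PTH marrow thus held both the second highest array and the lowest.

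**Figure D3:**
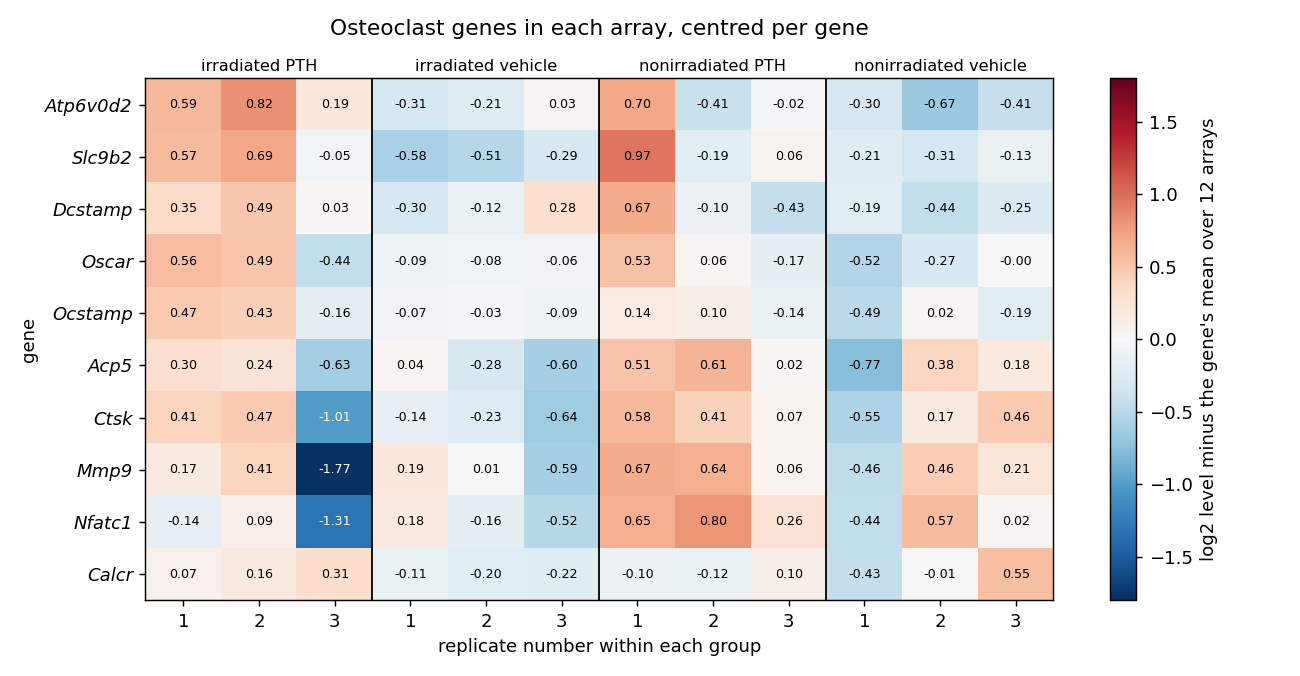
Log2 level of each gene (rows) on each array (columns, grouped), less the mean of that gene over the 12 arrays, with red above and blue below that mean. Irradiated PTH replicate 3 is blue for Mmp9, Nfatc1 and Ctsk (-1.77, -1.31 and -1.01) and not for Atp6v0d2 (0.19). For Atp6v0d2 it was still the lowest array of its group (10.01 against 10.41 and 10.64), as for every other gene but Calcr. Calcr had its highest irradiated PTH value on that array (5.99 against 5.75 and 5.84).

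The promoters of 4 of these genes are shown so that a gene of each set (Slc9b2 of the first, Ctsk and Acp5 of the second) stands beside Oscar, which is in neither. They are windows of 300 bases, 250 before the gene start and 50 after it, from RefSeq on GRCm38.p6. Windows were taken for 5 of the 10 genes, 8 in all. For the 10 genes, windows on 1 chromosome were left out, while the count of all windows keeps them. A gene without a window here may therefore have one. Capitals mark matches on either strand to 5 motifs. They are the NFAT core GGAAA, which reads TTTCC on the other strand, the AP-1 motif TGANTCA, the E-box CATGTG, which reads CACATG on the other strand, the E-box CACGTG, and the PU.1 core GAGGAA, which reads TTCCTC on the other strand. The PU.1 core shares bases with the NFAT core where its last letters are followed by another A. The windows are chr3:95498960-95499259 on the plus strand for Ctsk, chr9:22130549-22130848 on the minus strand for Acp5 (1 of its 3 windows), chr3:135307450-135307749 on the plus strand for Slc9b2 and chr7:3616108-3616407 on the minus strand for Oscar.
Ctsk: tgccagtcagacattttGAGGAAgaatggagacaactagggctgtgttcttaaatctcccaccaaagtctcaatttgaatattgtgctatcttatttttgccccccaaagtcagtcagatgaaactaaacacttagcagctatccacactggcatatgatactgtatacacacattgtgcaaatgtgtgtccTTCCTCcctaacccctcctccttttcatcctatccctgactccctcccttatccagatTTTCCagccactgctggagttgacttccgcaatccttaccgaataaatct
Acp5: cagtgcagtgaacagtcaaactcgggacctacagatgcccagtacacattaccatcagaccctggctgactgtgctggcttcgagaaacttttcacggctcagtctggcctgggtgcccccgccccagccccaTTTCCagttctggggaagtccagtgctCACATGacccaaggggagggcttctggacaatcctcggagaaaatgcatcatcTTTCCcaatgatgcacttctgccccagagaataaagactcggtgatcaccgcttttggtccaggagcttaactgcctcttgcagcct
Slc9b2: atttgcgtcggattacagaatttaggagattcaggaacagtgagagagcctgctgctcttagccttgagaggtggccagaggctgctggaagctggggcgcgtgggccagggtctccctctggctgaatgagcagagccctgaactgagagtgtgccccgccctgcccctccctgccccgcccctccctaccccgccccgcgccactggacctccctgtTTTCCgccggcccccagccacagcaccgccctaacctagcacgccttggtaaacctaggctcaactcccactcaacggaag
Oscar: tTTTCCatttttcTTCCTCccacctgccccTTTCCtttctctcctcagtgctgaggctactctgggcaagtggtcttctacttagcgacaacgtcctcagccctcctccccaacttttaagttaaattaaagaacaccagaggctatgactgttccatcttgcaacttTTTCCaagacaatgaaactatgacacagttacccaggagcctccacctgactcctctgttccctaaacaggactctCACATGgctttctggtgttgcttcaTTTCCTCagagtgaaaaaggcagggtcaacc
The Ctsk window held 3 matches, an NFAT core at the gene start and PU.1 cores that begin at -233 and -58 from it. The Oscar window held 7, of which 4 were NFAT cores, and Slc9b2 held 1, an NFAT core that begins at -31. Of the 8 windows, 7 held the NFAT core, against 61.3% of all 32851 windows, 2 held CATGTG, against 14.2%, and 2 held the PU.1 core, against 28.3%. None of the 8 held TGANTCA or CACGTG, against 7.81% and 7.15% of all windows. Such matches describe letters in the window and are not binding sites.

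Regulators of osteoclast formation were compared in the same fit. As for 0% of all genes, none of the 13 receptor and proximal signalling genes, 8 measured transcription factors and repressors, 16 genes of acid secretion, adhesion and fusion, or 10 ligands and decoys was called by limma in any PTH comparison. Tnfrsf11a, which encodes RANK, differed by 0.28 between irradiated PTH and irradiated vehicle marrow, and Tnfrsf11b, the decoy receptor osteoprotegerin, by 0.17 (adjusted p = 0.844 each by limma). In the same comparison the differences were -0.28 for Fcer1g, an adaptor of immunoreceptors, -0.54 for Spi1, which encodes PU.1, 0.31 for Snx10, a sorting nexin needed for acid secretion, -0.46 for Adam8, a membrane protease, and -0.34 for Wnt5a, a secreted ligand (adjusted p = 0.844 each by limma). In the acid secretion list 6 of 16 genes were above 0 in that comparison, against 52.2% of all genes, and 12 of 16 were without both compressed arrays. Between the nonirradiated groups, which also differ in sex, 15 of 16 were above 0, against 52.7% of all genes, and 14 of 16 without those arrays. Tnfrsf11b and Wnt5a were dim, with every group mean of both below 6.22, the median of all values in the table.

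Among these regulators, 5 were called in a comparison of irradiated with nonirradiated marrow. Averaged over treatment these were 2 of 13 receptor and signalling genes, 1 of 8 transcription factors and repressors and 0 of 16 acid secretion genes. Of the 10 ligands and decoys, 1 was called higher and 1 lower. Limma called 6.1% of all genes there, 2.43% between the PTH groups and 2.22% between the vehicle groups. Syk, the kinase that relays immunoreceptor signals, averaged 7.96 ± 0.467 in irradiated PTH marrow and 9.54 ± 0.201 in nonirradiated PTH marrow (SD, n = 3 each), and fell by 1.58 (adjusted p = 0.00676 by limma). Between irradiated vehicle and nonirradiated vehicle marrow its difference was -1.06 (adjusted p = 0.0603 by limma). Bcl6, a repressor of osteoclast genes, averaged 7.17 ± 0.405 in irradiated PTH marrow and 8.66 ± 0.132 in nonirradiated PTH marrow, and fell by 1.49 (adjusted p = 0.00257 by limma), with -0.52 between the vehicle groups (adjusted p = 0.28 by limma). B cells also use Syk and Bcl6, and the B lineage genes had a median of -2.40 between the PTH groups and -1.78 between the vehicle groups, whose part in these differences was not tested. Il1b, a cytokine that promotes resorption, fell by 2.34 in irradiated PTH marrow against nonirradiated PTH marrow, and fell by 2.74 in irradiated vehicle marrow against nonirradiated vehicle marrow (adjusted p = 0.000297 and 0.000256 by limma). Il6, a cytokine that induces RANKL in osteoblast-lineage cells, averaged 5.01 ± 0.205 in irradiated PTH marrow and 3.72 ± 0.14 in nonirradiated PTH marrow, a rise of 1.29 (adjusted p = 0.0131 by limma), with 0.77 between the vehicle groups (adjusted p = 0.143 by limma). All 4 group means of Il6 lay below 6.22, the median of all values in the table. Vav3, an exchange factor that organises the osteoclast cytoskeleton, fell by 0.59 averaged over treatment (adjusted p = 0.0157 by limma). With all 12 arrays, these 5 were the only genes of the 4 lists that limma called in any of the 7 comparisons.

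The osteoclast genes varied together with genes of the bone-forming lineage. The 13 measured genes of osteoblasts, osteocytes and bone matrix averaged 7.71 to 8.22 in irradiated PTH marrow, 7.80 to 7.86 in irradiated vehicle marrow, 7.98 to 8.40 in nonirradiated PTH marrow and 7.63 to 8.01 in nonirradiated vehicle marrow. Over the 12 arrays their mean correlated with that of the 10 osteoclast genes at r = 0.948, and at 0.952 without both compressed arrays. Oscar (0.93) and Slc9b2 (0.84) lay nearest to that list, and also without those arrays (0.93 and 0.89). Calcr (0.26) lay farthest over the 12 arrays, and Nfatc1 (0.46, with Calcr at 0.61) without both compressed ones. The mean of 8 housekeeping genes also correlated with that of the osteoclast genes, at 0.547, or 0.810 after removing the group means, and at 0.387 and 0.615 without those arrays. It was 10.59 on irradiated PTH replicate 3, the lowest of the 12 arrays, against 10.85 to 11.13 on the others, and its part in these correlations was not tested. The 9 chondrocyte (cartilage cell) genes correlated with the osteoclast genes at 0.245 over the 12 arrays and at 0.379 without both compressed ones. After removing the group means, r was 0.937 for the bone-forming list and 0.579 for the chondrocyte list. Without both compressed arrays these were 0.892 and 0.920. None of the 13 bone genes was called in any comparison. Between irradiated PTH and irradiated vehicle marrow 8 of 13 were above 0 with a median of 0.06, against 52.2% of all genes, and 13 of 13 with a median of 0.25 without both compressed arrays. Ibsp, bone sialoprotein, differed by 0.75 there and Postn, periostin, by 0.80 (adjusted p = 0.844 each by limma). The part of these bone genes in the PTH differences was not tested.

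The mean of the macrophage genes correlated with that of the osteoclast genes at 0.08, or 0.46 after removing the group means. Without both compressed arrays these were -0.09 and 0.01. Of the 11, limma called 1 higher between irradiated PTH and nonirradiated PTH marrow, 2 between irradiated vehicle and nonirradiated vehicle marrow and 4 averaged over treatment, against 2.43%, 2.22% and 6.1% of all genes called in either direction. Without both compressed arrays it called 2, 1 and 4. Between irradiated PTH and irradiated vehicle marrow, Siglec1 and C1qb of that list differed by -0.75 and -0.35 (adjusted p = 0.844 each by limma). Nfatc1 and Mmp9 correlated with the neutrophil list at 0.78 and 0.66 over the 12 arrays, and at 0.67 and 0.48 without both compressed arrays. With the dendritic cell list they correlated at 0.85 and 0.81, and at 0.70 and 0.54 without those arrays. Atp6v0d2 and Slc9b2 correlated with the neutrophil list at -0.23 and 0.00. The part of these other cells in the values of Nfatc1 and Mmp9 was not tested.

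**Figure D4:**
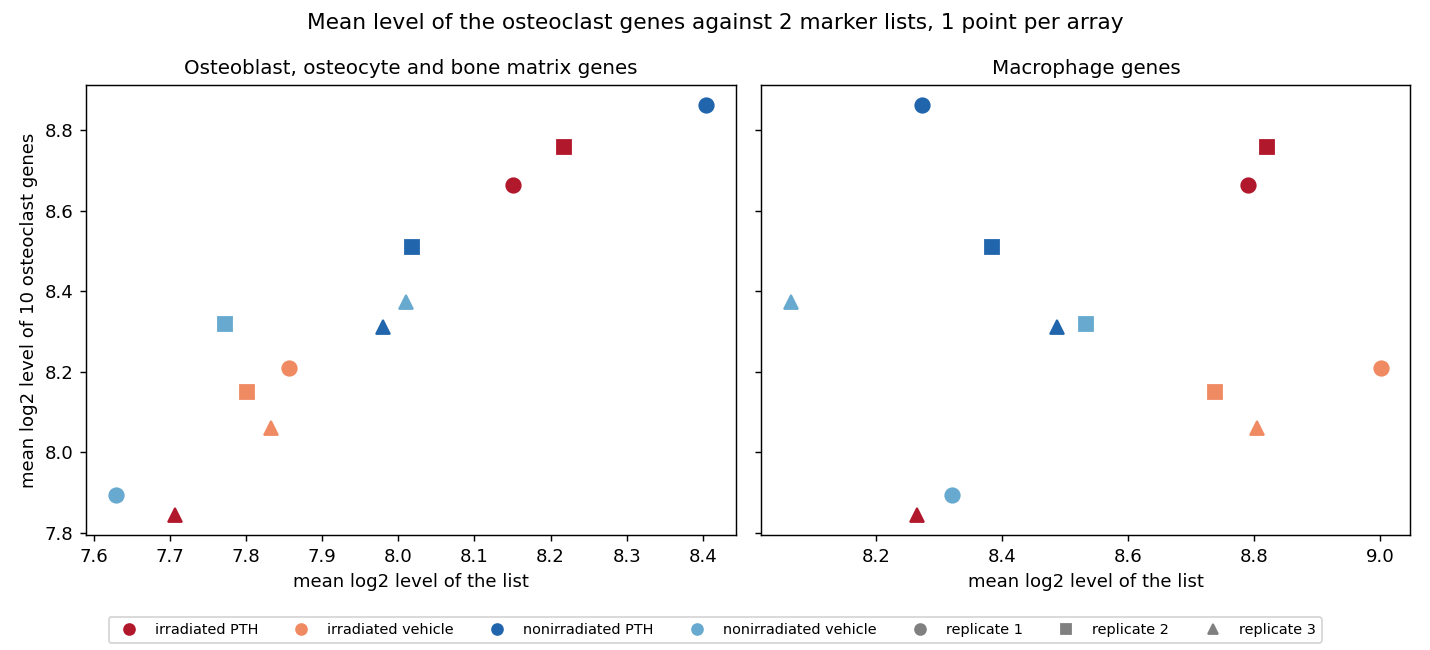
Mean log2 level of the 10 osteoclast genes (vertical axis) against the mean log2 level of the bone-forming lineage list (left) and of the macrophage list (right), 1 point per array, coloured by group and shaped by replicate number. The points lie along a line on the left (r = 0.948) and scatter on the right (r = 0.08).

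Among the other genes of the table, those whose levels over the 12 arrays were most like the mean of the 10 were Tm4sf19 (r = 0.959), Lrrc17 (0.940), Tnc (0.913), Oit3 (0.911), Mst1r (0.903), Panx3 (0.900), Slc37a2 (0.899) and Slc8a3 (0.891). After removing the group means, Lrrc17 (0.992), Anpep (0.979) and Tm4sf19 (0.975) came first, so that Lrrc17 and Tm4sf19 were near the top of both rankings. Tm4sf19 averaged 7.11 ± 0.884 in irradiated PTH marrow, 6.91 ± 0.242 in irradiated vehicle marrow, 7.49 ± 0.378 in nonirradiated PTH marrow and 6.98 ± 0.511 in nonirradiated vehicle marrow (SD, n = 3 each). The 8 were ranked out of all other genes, so high values of r follow in part from the ranking.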

How the data were processed

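Total RNA from flushed long bones was labelled with biotin and hybridised to 1-colour arrays, per the labels' protocols. The deposited values are log2 expression, processed by the authors with affy, RMA and limma per the submitters' processing notes, which give no versions; the sources used here do not state a genome build, and the scale was read from the values. Of 35556 rows, 21789 had 1 symbol in the platform annotation, 1621 several and 12146 were not listed; the row with the highest mean per gene gave 19938 genes. Contrasts of the 4 group means were fitted over all 12 arrays in limma 3.58.1 (R 4.3.3) with lmFit and eBayes and adjusted by Benjamini-Hochberg, and the fit was tested on simulated data. The number of arrays limits the precision. The genes and lists were chosen with earlier results of these data known.

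Named genes are the 10 osteoclast genes, list genes called in any contrast or with the 2 smallest p between irradiated PTH and irradiated vehicle marrow, and the 8 most alike. Between the irradiated groups, deviations from group means correlated at 0.144 to 0.57 for same-numbered arrays and at -0.509 to 0.396 for differently numbered ones. Those groups met a rule of every same-numbered pair over 0.1, and no other comparison did (lowest -0.65). The 2 ranges overlap, and the titles state no pairing. In both irradiated groups replicate 1 was the array with the female pattern. A pairing of the samples is therefore not established. Replicates of a group correlated at 0.9599 to 0.9938, and no pair was identical. Alternatives were a trended robust variance, array weights, scaling, filter, row choice, samples, replicate block, sex, compressed arrays and each array left out.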

Additional observations from a re-analysis of the deposited data

How the results depend on the processing

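Over 14 alternatives and 12 left-out arrays, 1 of 51 tested differences of the osteoclast genes was called in any alternative, and 36 turned sign in none. That call was Nfatc1 between irradiated PTH and nonirradiated PTH marrow, with the replicate block in a fit of the groups compared (difference -1.03, adjusted p = 0.0432 by limma, 1 gene of the 10 called). The numbers did not meet the pairing rule for those groups. Between the irradiated groups, where the numbers met that rule, the replicate block called 0 of the 10, with an adjusted p of 0.507 by limma for Slc9b2 and Atp6v0d2. The block changed no other call. Slc9b2 between irradiated PTH and irradiated vehicle marrow ran from 0.72 to 1.09 (smallest adjusted p 0.259 by limma) and Atp6v0d2 from 0.55 to 0.88 (0.342). With array weights, Mmp9 and Nfatc1 had 0.182 and 0.0422 in that comparison. With sex as a term, the nonirradiated PTH minus vehicle median was 0.0633, with -0.039 for Acp5, -0.156 for Ctsk and -0.28 for Mmp9. Mmp9 then had -0.27 averaged over irradiation and 0.00783 for the interaction. The sex term rested on the irradiated groups alone, so it does not tell PTH and sex apart between the nonirradiated groups. Without both compressed arrays, an alternative on samples, the irradiated PTH minus vehicle values were 0.42 for Mmp9 and 0.14 for Nfatc1, Calcr had 0.18 between the nonirradiated groups and 0.0435 between the vehicle groups, and Ctsk had 0.0879 between the PTH groups. Leaving out 1 array at a time, differences that turned sign ranged, for irradiated PTH minus irradiated vehicle, from -0.67 to 0.42 for Mmp9 and -0.56 to 0.14 for Nfatc1; for nonirradiated PTH minus nonirradiated vehicle, from -0.31 to 0.18 for Calcr; for irradiated PTH minus nonirradiated PTH, from -0.65 to 0.0879 for Ctsk, -0.11 to 0.38 for Oscar and -0.11 to 0.47 for Slc9b2. For irradiated vehicle minus nonirradiated vehicle they ranged from -0.56 to 0.0149 for Acp5, -0.45 to 0.0435 for Calcr, -0.47 to 0.0271 for Mmp9 and -0.46 to 0.0456 for Nfatc1. Mmp9 ranged from -0.14 to 0.40 averaged over irradiation and from -1.06 to 0.0323 for the interaction. The cause of these turns was not tested. Over all genes, limma called 485 between irradiated PTH and nonirradiated PTH marrow (200 to 1148 over the alternatives), 442 between irradiated vehicle and nonirradiated vehicle marrow (78 to 1149) and 1216 for irradiation averaged over treatment (748 to 2517); the PTH counts of 0 ran to at most 1, 4 and 1 between the irradiated groups, between the nonirradiated groups and averaged over irradiation. Centring on housekeeping genes moved the median of all genes by 0.16 for irradiated PTH minus irradiated vehicle, -0.15 for irradiated vehicle minus nonirradiated vehicle and 0.24 for the interaction, and no scaling turned the sign of a tested difference. With 3 arrays a group, an adjusted p over the threshold does not show that levels were equal.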
